A study of Bos taurus with 9 samples.

Results

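Claudins and other tight junction genes were followed in bovine uterine gland fragments grown in 3D culture. The 10 genes were chosen by name, and all 10 were found among the 20679 genes of the deposited tables: CLDN1, CLDN3, CLDN4, CLDN7, CLDN10, CLDN11, CLDN16, TJP1, OCLN and F11R. They were read in 3 groups of 3 libraries, all collected on day 5 from fragments embedded in Matrigel, a basement membrane gel, in DMEM/F12 medium with bovine serum albumin, ascorbic acid, transferrin, selenite and insulin. CONT_M had no epidermal growth factor (EGF) and its fragments formed cysts. EGF_M had EGF and formed uterine gland-like (UG-LIKE) structures. EGF_MCOL had EGF in Matrigel supplemented with type I collagen. The labels give no dose for EGF or collagen I. The fragments came from abattoir uteri and were picked by hand, so each library is a bulk sample of many cells, and the labels do not say whether the 3 replicates of a group are separate animals. The p-values therefore measure only the spread between these libraries.

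Tight junctions seal the space between neighbouring epithelial cells near their apical side and separate the luminal from the basal membrane. Claudins are the membrane proteins that form the strands: some tighten the seal (barrier claudins) and others form pores for selected ions or water (channel claudins). Occludin and the junctional adhesion molecules share the membrane with them, and scaffold proteins such as ZO-1 tie the strands to the actin cytoskeleton. In uterine glands they bound the lumen into which the gland secretes.

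The libraries held 6568968 to 17948600 counted reads each, and EGF_M replicate 1 was the shallowest. Epithelial markers (EPCAM, CDH1, KRT8, KRT18, KRT19 and FOXA2) had the highest sum of the 8 marker lists in every library, at 16649 to 18423 TPM (TPM, a transcript level corrected for gene length and scaled to the same total in every library) in CONT_M, 27613 to 43306 in EGF_M and 28181 to 38520 in EGF_MCOL. The summed level of 7 stromal fibroblast markers was 2020 to 4565 TPM in CONT_M, 755 to 3001 in EGF_M and 1904 to 3505 in EGF_MCOL, and that of 6 endothelial markers stayed under 30 TPM in all libraries. Leukocyte markers summed to 73.3 to 124, 134 to 180.0 and 109 to 152 TPM in the same order, smooth muscle and pericyte markers to 45.3 to 86.3, 25.1 to 49.0 and 43.6 to 50.4 TPM, and mesothelial markers to 165 to 273, 199 to 2098 and 252 to 2209 TPM. The leukocyte genes did not move together. In EGF_M against CONT_M the log2 fold changes of CD74 and CD14 were 0.79 and 0.33. Those of PTPRC, CSF1R and CD68 were -0.98, -2.08 and -1.23, and none had an adjusted p under 0.05 (edgeR). CD3E, KRT15, TP63 and CALB2 were under 1 TPM everywhere. Replicate number 3 stood apart: its EGF_M and CONT_M libraries differed less in CLDN10 and CLDN3 than the other pairs did. Because it was noticed from these values, a test without it is no support, and log2 fold changes are given as ranges over the 6 libraries and the 3 pairs left out in turn (the pairs with the replicate number in the fit).

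CLDN4, a barrier claudin, had the highest level of the 10 genes in every group. Its mean was 852 ± 174 TPM (SD, n = 3) in CONT_M, 710 ± 106 in EGF_M (SD, n = 3) and 818 ± 112 in EGF_MCOL (SD, n = 3), and its range did not overlap that of any other member. In CONT_M it was followed by CLDN1 and CLDN3, with means of 316 and 179 TPM, whereas CLDN3 came before CLDN1 in both EGF groups, where the ranges of these genes overlapped. OCLN, with group means of 155 to 225 TPM, and F11R, with 120.3 to 212 TPM, came next. TJP1 and CLDN7 had group means of 19.4 to 49.9 TPM, CLDN10 ranged most widely, and CLDN11 and CLDN16 were the lowest in all groups. No CLDN11 or CLDN16 library exceeded 1.90 TPM.

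**Figure D1:**
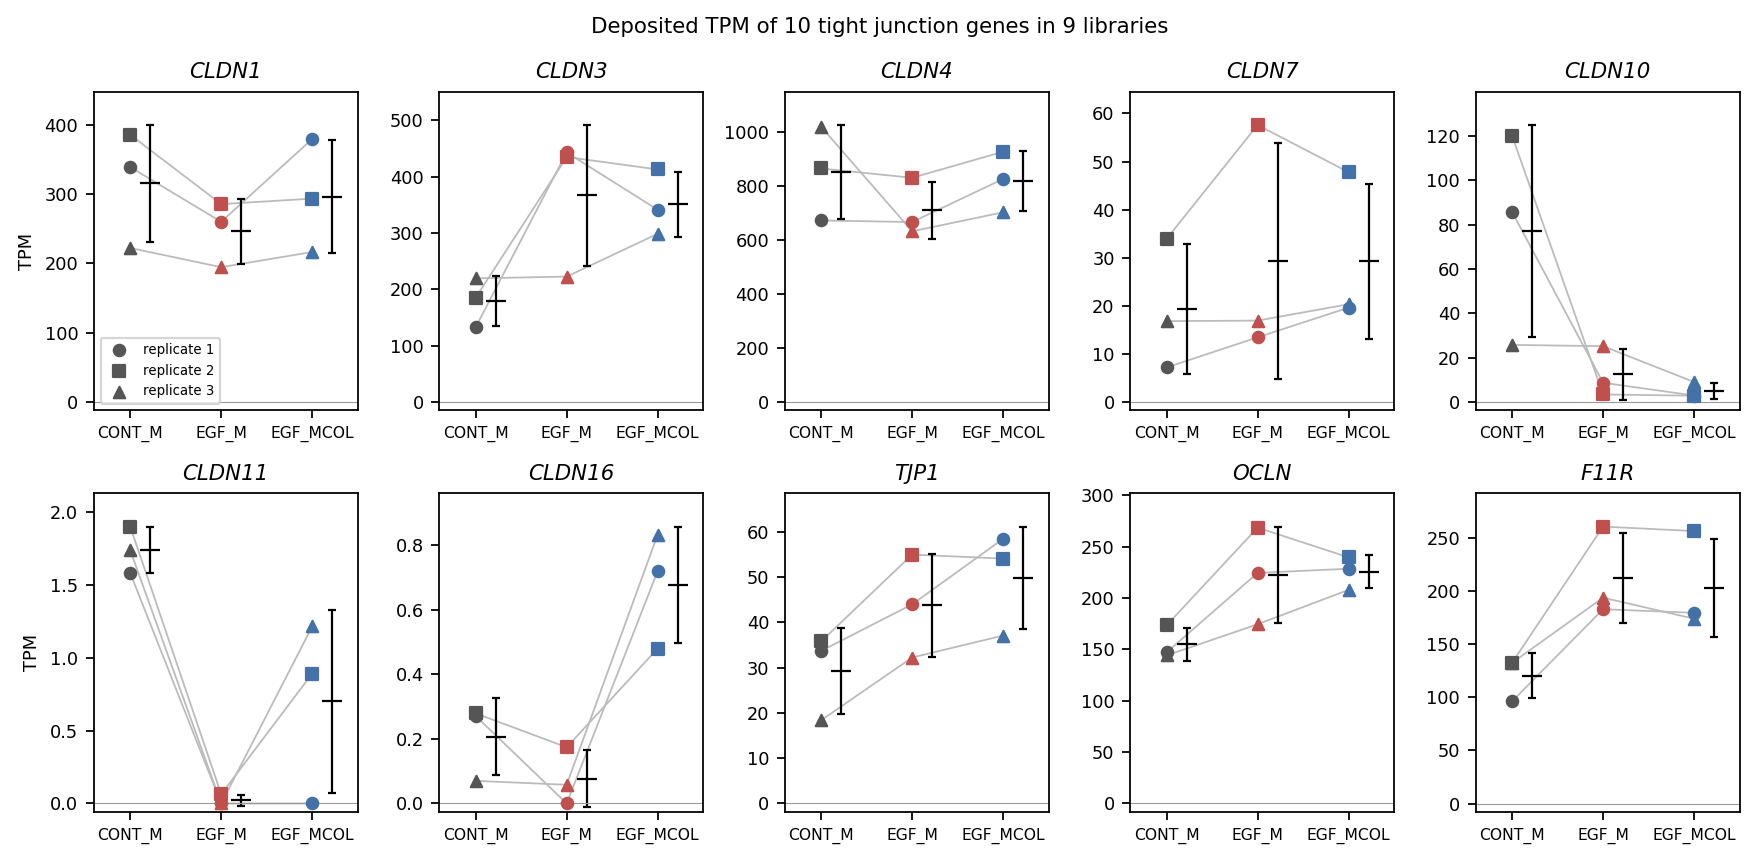
Deposited TPM (linear axis, a separate scale for each gene) of the 10 genes in CONT_M, EGF_M and EGF_MCOL. Symbols are libraries, marked by replicate number and joined by grey lines, and black bars are the mean ± SD of 3 libraries. CLDN10 is lower in both EGF groups than in CONT_M, with EGF_M replicate 3 only just under the lowest CONT_M library, and CLDN4 overlaps between all groups.

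The files list 22 claudin genes. Of these, 9 had at least 1 TPM in every library, 10 were under 1 TPM in every library, and 6 of those 10 had 0 counts throughout. The summed TPM of all claudins was 1562 ± 150 in CONT_M (SD, n = 3), 1488 ± 270 in EGF_M (SD, n = 3) and 1620 ± 240 in EGF_MCOL (SD, n = 3), so the group means differed by less than the spread between libraries. CLDN1, CLDN3 and CLDN4 together made up 81.7% to 92.1% of that sum in CONT_M, 87.6% to 89.6% in EGF_M and 90.3% to 90.7% in EGF_MCOL. CLDN3 accounted for 9.47% to 13.8% in CONT_M, 18.6% to 28.9% in EGF_M and 20.0% to 22.9% in EGF_MCOL. The 4 channel claudins (CLDN2, CLDN10, CLDN15 and CLDN16) held 1.76% to 7.16%, 0.223% to 2.22% and 0.188% to 0.842% of the sum in the same order of groups. CLDN10 was the main part of that share in each library.

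**Figure D2:**
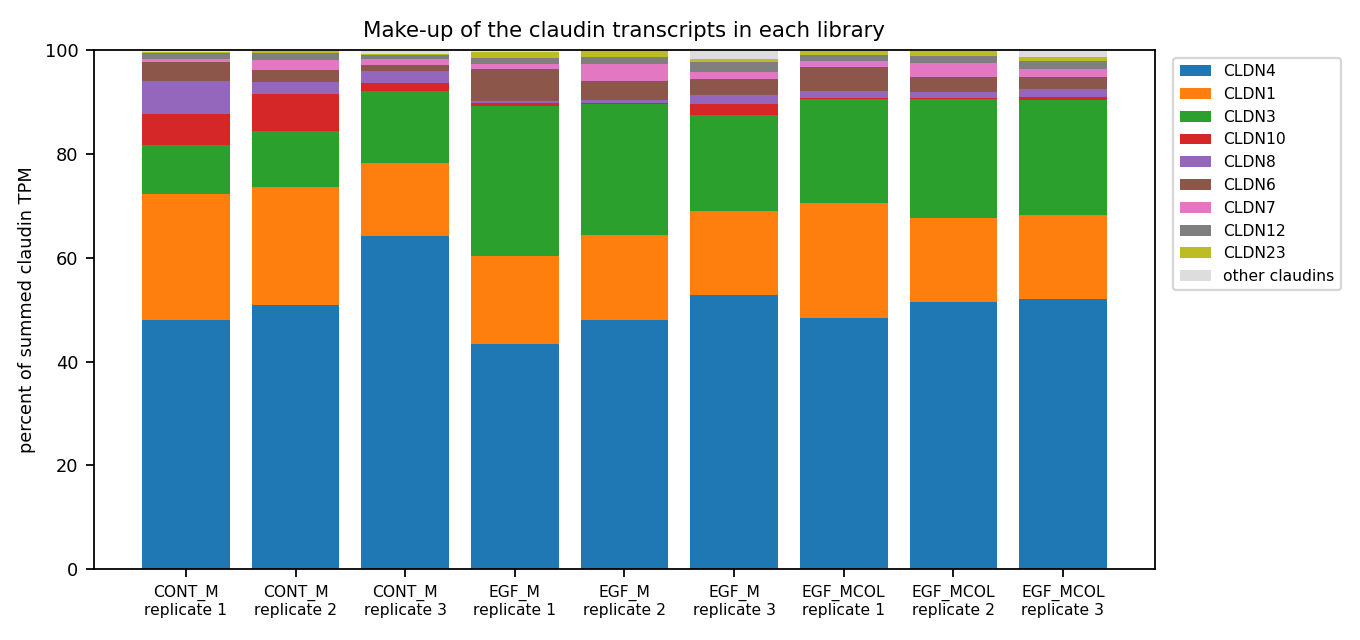
Percent of the summed claudin TPM held by each claudin gene in each of the 9 libraries, stacked to 100. CLDN4 is the largest part in each library, CLDN3 is a larger part in every EGF library (18.6% or more) than in every CONT_M library (13.8% or less), and CLDN8 is a larger part in every CONT_M library than in every EGF library.

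The first comparison, EGF_M against CONT_M, asks how EGF without collagen I changed these genes. At an adjusted p under 0.05 (edgeR's quasi-likelihood test, Benjamini-Hochberg adjustment over all genes tested), 1 of the 9 members tested was called, CLDN11, which was lower and had passed the filter on low counts only through the CONT_M libraries. Over all 12074 genes tested, 0.845% were called higher and 0.944% lower. With the replicate number as a block, 2 members were called, F11R higher and CLDN11 lower, where 4.9% of all genes were called higher and 5.67% lower. By levels alone, the TPM of CLDN3, OCLN and F11R was higher in every EGF_M library than in every CONT_M library, and that of CLDN10 and CLDN11 was lower. The share of all genes tested whose groups did not overlap in TPM was 11.9% in the higher and 11.8% in the lower direction. CLDN16 was too low to be tested here. The median log2 fold change (log2FC) of the 9 members was 0.51, against 0.01 for all genes, and 5 of the 9 values were positive (55.6%, against 50.8% of all genes).

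F11R encodes the junctional adhesion molecule JAM-A, which helps place the junction. Its level was 96.2, 132.4 and 132.4 TPM in the CONT_M libraries (replicates 1, 2 and 3), 183, 260.4 and 194 TPM in EGF_M, and 179, 256 and 174 TPM in EGF_MCOL. Every EGF library was above every CONT_M library, with a gap of 41.4 TPM or more. The gap depended on the scale and its normalization. In log2 CPM (counts scaled to library size and adjusted by TMM factors), EGF_MCOL replicate 1 was at 8.55 and CONT_M replicate 3 at 8.49. The log2FC of EGF_M against CONT_M was 0.79 (SE 0.25, adjusted p = 0.124) without the block and 0.81 (SE 0.19, adjusted p = 0.0393) with it. The pairs of replicates 1, 2 and 3 differed by 0.99, 1.10 and 0.45 on the log2 scale, all in the same direction. The blocked call was lost without pair 1 or pair 2 and kept without pair 3, and the log2FC ranged from 0.63 to 1.03 over the libraries and pairs left out. Its row at chr3:8464408-8491416 (+ strand, ARS-UCD2.0) begins 21.6 kb after the start of the gene in RefSeq, so any exon that RefSeq places there lies outside the row.

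CLDN3, a barrier claudin, was at 133, 185 and 219 TPM in CONT_M, 443, 435 and 223 TPM in EGF_M, and 341, 413 and 299 TPM in EGF_MCOL. In TPM, the EGF_M replicate 3 library was only just above the highest CONT_M library, and the other EGF libraries were clearly higher. In log2 CPM, EGF_M replicate 3 was below CONT_M replicate 3, at 7.51 against 7.60. The log2FC of EGF_M against CONT_M was 0.98 (SE 0.33, adjusted p = 0.148), and 1.00 with the block (adjusted p = 0.109). The pair differences of replicates 1, 2 and 3 were 1.80, 1.35 and -0.08 on the log2 scale. Over the libraries and pairs left out the log2FC ranged from 0.64 to 1.56.

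CLDN4 lies beside CLDN3 on chromosome 25, at chr25:33477754-33480098 (- strand) and chr25:33507171-33509291 (+ strand), 27072 bases apart with no gene between them. It did not pass the test: it was at 672, 865 and 1019 TPM in CONT_M and 666, 830.3 and 632 TPM in EGF_M, with overlapping groups and a log2FC of -0.31 (SE 0.26, adjusted p = 0.548). The TPM ratio of CLDN3 to CLDN4 was 0.197, 0.214 and 0.215 in CONT_M, 0.665, 0.524 and 0.352 in EGF_M, and 0.413, 0.446 and 0.425 in EGF_MCOL. The ratio was higher in all 6 EGF libraries than in all 3 CONT_M libraries, in EGF_M replicate 3 too. In the replicate 3 pair of EGF_M and CONT_M, however, CLDN3 did not rise (-0.08 on the log2 scale) and CLDN4 was lower (-0.79). CLDN4 differed by 0.05 and 0.06 in pairs 1 and 2. The range of the ratio within EGF_M was wider than within the other groups.

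CLDN1, a barrier claudin of most epithelia, was at 339, 386 and 222 TPM in CONT_M, 260.0, 286 and 195 TPM in EGF_M, and 379.7, 294 and 216 TPM in EGF_MCOL. Replicate 3 was the lowest library in each group, and the groups overlapped. The log2FC of EGF_M against CONT_M was -0.35 (SE 0.21, adjusted p = 0.393). CLDN7, another barrier claudin, which is also found along the lateral membrane, was at 7.25, 34.0 and 16.9 TPM in CONT_M, 13.5, 57.6 and 17.0 TPM in EGF_M, and 19.7, 47.8 and 20.4 TPM in EGF_MCOL. Replicate 2 was the highest in every group. The log2FC of CLDN7 for EGF_M against CONT_M was 0.60 (SE 0.67, adjusted p = 0.663), and 0.54 with the block (adjusted p = 0.281). Over the libraries and pairs left out it ranged from -0.33, without EGF_M replicate 2, to 1.17.

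CLDN10, which forms channels for ions, was at 85.8, 120.1 and 25.7 TPM in CONT_M. In EGF_M it was at 8.64, 3.36 and 25.1 TPM and in EGF_MCOL at 2.87, 2.78 and 8.98 TPM. Thus CONT_M replicate 3 and EGF_M replicate 3 were almost at the same level, while the other pairs were far apart. The log2FC of EGF_M against CONT_M was -2.55 (SE 0.76, adjusted p = 0.114), or -2.83 with the block (adjusted p = 0.0788). The pairs of replicates 1, 2 and 3 differed by -3.20, -4.92 and -0.13 on the log2 scale. Over the libraries and pairs left out the log2FC ranged from -4.18 to -1.66. The CLDN10 row spans chr12:72989027-73009446 (+ strand), while the gene in RefSeq begins 84.4 kb upstream of it, and exons on that stretch lie outside the row.

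CLDN11, best known from myelin and the testis barrier, was near the limit of detection. Its counts were 12, 28 and 17 in CONT_M, 0, 1 and 0 in EGF_M, and 0, 14 and 18 in EGF_MCOL. The CONT_M libraries stood above all EGF_M libraries. In TPM, replicates 1, 2 and 3 of EGF_MCOL were at 0, 0.891 and 1.21, all below the CONT_M range of 1.58 to 1.90. Pooled over libraries, 57 counts in CONT_M against 1 in EGF_M gave a ratio to the total of 60.6 (95% exact interval 10.4 to 2436, counting error only), and the test gave an adjusted p of 0.0462, or 0.0335 with the block. CLDN11 passed the filter on low counts only through the CONT_M libraries, where it was high. The filter thus favoured a difference, and these p-values are given as a description. The call was lost when any 1 of the 6 libraries was left out (adjusted p 0.0760 to 0.167) and when no filter on low counts was used.

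OCLN encodes occludin, a strand protein of the MARVEL family. It was at 147, 173 and 144 TPM in CONT_M, 224, 269 and 174 TPM in EGF_M, and 229, 239.6 and 208 TPM in EGF_MCOL. The EGF_M replicate 3 library was about 1 TPM above the highest CONT_M library, and the rest of the EGF libraries were well above it. The log2FC of EGF_M against CONT_M was 0.51 (SE 0.20, adjusted p = 0.197), and 0.49 (adjusted p = 0.127) with the block. It ranged from 0.36 to 0.70 over the libraries and pairs left out.

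TJP1 encodes ZO-1, the scaffold that binds claudins and occludin. It was at 33.7, 35.8 and 18.4 TPM in CONT_M, 44.0, 55.0 and 32.3 TPM in EGF_M, and 58.5, 54.1 and 37.1 TPM in EGF_MCOL. Replicate 3 was the lowest library in each group, and within each replicate number both EGF libraries were above the CONT_M library. For EGF_M against CONT_M the log2FC was 0.59 (SE 0.25, adjusted p = 0.226), and 0.59 (SE 0.16, adjusted p = 0.0578) with the block.

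Epithelial marker levels moved in the same direction as F11R, CLDN3, OCLN and TJP1. Of the 6 epithelial markers, 0 were called higher in EGF_M than in CONT_M without the block and 3 with it. Their median log2FC was 0.79 without the block and 0.73 with it. Of 7 stromal fibroblast markers, 0 were called without the block and 1, lower, with it. Over all genes tested, 0.845% were called higher and 0.944% lower without the block, and 4.9% and 5.67% with it. Of 2 mesothelial markers tested, 0 were called without the block and 1 with it, UPK3B, which was higher (log2FC 2.78, adjusted p = 0.0194). MSLN had a log2FC of 2.26 with the block (adjusted p = 0.0937). The summed mesothelial level in EGF_M was 1919, 2098 and 199 TPM in replicates 1, 2 and 3. Of 2 markers of basal or stratified epithelium tested, 0 were called without the block and KRT5 was called lower with it (log2FC -2.42, adjusted p = 0.0413). In bulk samples, fewer cells of a type and less RNA per cell cannot be told apart, and the part of these shifts in the results above was not tested.

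**Figure D3:**
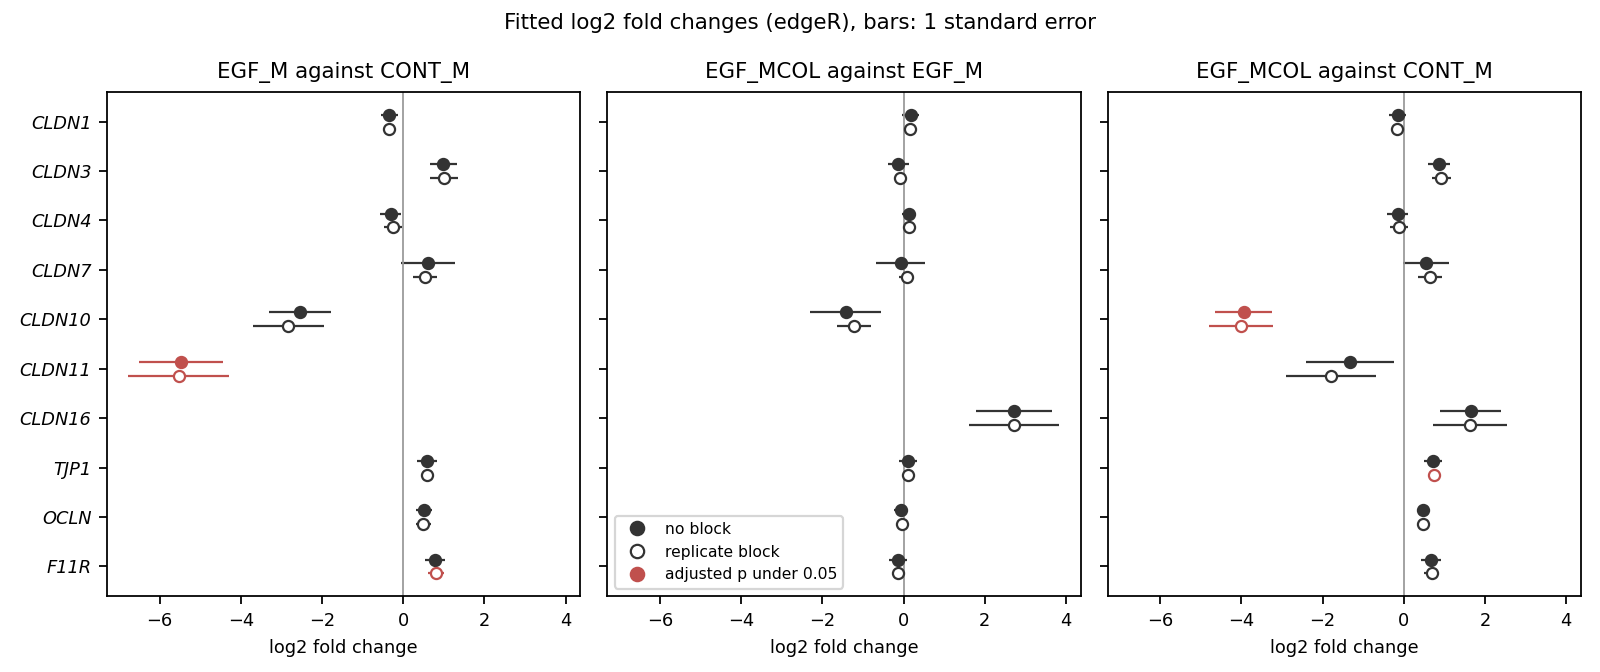
Fitted log2 fold changes of the members (x axis) in the 3 comparisons, with bars of 1 standard error, filled circles for the fit without and open circles for the fit with the replicate block. Red marks an adjusted p under 0.05: CLDN11 and, with the block, F11R in EGF_M against CONT_M, none in EGF_MCOL against EGF_M, and CLDN10 and, with the block, TJP1 in EGF_MCOL against CONT_M; a member without a circle was too low to be tested, and the fitted value of CLDN11 depends on the prior count.

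The second comparison, EGF_MCOL against EGF_M, asks what collagen I added under EGF. None of the 9 members tested was called, with or without the block (edgeR), and 0.0% of the 12470 genes tested were called in either fit. At an unadjusted p under 0.05 there were 51 genes without the block, 618 with it and 63 by DESeq2, which also called 0 genes. Among the members, CLDN16 was under 0.05 unadjusted without the block, and CLDN16 and CLDN10 with it. The log2FC of CLDN1, CLDN3, CLDN4, CLDN7, TJP1, OCLN and F11R lay between -0.14 (F11R, SE 0.23) and 0.18 (CLDN1, SE 0.21). Of these 7 genes, CLDN7 had the widest error, with a log2FC of -0.07 and an SE of 0.61 (0.08 with the block). CLDN10 was lower in EGF_MCOL in all 3 pairs, with differences of -1.62, -0.28 and -1.52 on the log2 scale, a log2FC of -1.42 (SE 0.87, adjusted p = 1.00) and overlapping groups.

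CLDN16, a channel claudin that takes part in the reabsorption of magnesium in the kidney, was the only member whose groups did not overlap in this comparison, where 3.57% of all genes tested did not. Its counts were 0, 4 and 1 in EGF_M and 16, 11 and 18 in EGF_MCOL, and 3, 6 and 1 in CONT_M. All EGF_MCOL libraries were above all others, although none reached 1 TPM. Per read counted, the pooled ratio of EGF_MCOL to EGF_M was 6.43 (95% exact interval 2.56 to 20.8, counting error only), with a log2FC of 2.72 (SE 0.93, adjusted p = 1.00). CLDN16 entered the test only through the EGF_MCOL libraries, where it was high, so these values are a description. CLDN16 lies at chr1:76847361-76869738 (- strand), 104028 bases from CLDN1 at chr1:76973767-76991474 (+ strand) with no gene between them, and CLDN1 did not pass the test. CLDN11 was too low to be tested in this comparison.

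The third comparison, EGF_MCOL against CONT_M, covers EGF and collagen I together and shares its CONT_M libraries with the first. All 10 members were tested, and 1 was called, CLDN10, which was lower, where 0.672% of 12509 genes were called higher and 0.815% lower. With the block 2 were called, CLDN10 lower and TJP1 higher, where the shares of all genes were 2.68% higher and 2.58% lower. In TPM, CLDN3, CLDN16, TJP1, OCLN and F11R were higher in every EGF_MCOL library than in every CONT_M library and CLDN10 and CLDN11 were lower, where the groups of 14.3% of all genes did not overlap in the higher and those of 10.3% in the lower direction. CLDN16 entered this test only through the EGF_MCOL libraries, where it was high. CLDN11 would not have entered it without the CONT_M libraries, where it was high. The values of both genes in this comparison are a description.

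CLDN10 fell by 3.95 on the log2 scale (SE 0.70, adjusted p = 0.0456), to a level 15.4-fold lower. The value with the block was -4.02 (SE 0.79, adjusted p = 0.0456). The pairs of replicates 1, 2 and 3 differed by -4.82, -5.20 and -1.65, so all pairs went the same way and replicate 3 the least. The call was lost when replicate 1 or replicate 2 of either group was left out, with adjusted p from 0.0370 to 0.173 over all 6 libraries left out in turn. Over the libraries and pairs left out the log2FC ranged from -5.17 to -3.29, and with the block no member was called without pair 1 or pair 2. TJP1 rose by 0.73 with the block (SE 0.14, adjusted p = 0.0456), while the fit without it gave 0.72 (SE 0.22, adjusted p = 0.125). Its 3 pairs differed by 0.72, 0.68 and 0.85. The other members did not pass, with a log2FC of 0.87 for CLDN3 (SE 0.27, adjusted p = 0.125), 0.68 for F11R (SE 0.25, adjusted p = 0.180), 0.48 for OCLN (SE 0.15, adjusted p = 0.131) and 1.65 for CLDN16 (SE 0.75, adjusted p = 0.254). CLDN4 and CLDN1 had values of -0.15 each, CLDN7 0.54 and CLDN11 -1.32. Of the 6 epithelial markers, 1 was called higher in this comparison with the block and 0 without it. The same counts held for the 2 mesothelial markers tested. Of all genes tested, 2.68% were called higher with the block and 0.672% without it.

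The variation of each gene over the 9 libraries was split between group and replicate number. The scale was log2 CPM (counts scaled to library size and adjusted by TMM factors). Group held 62.8% to 74.7% of the sum of squares for CLDN3, CLDN10, TJP1, OCLN and F11R, against a median of 29.9% over 12858 genes. It held 74.3% for CLDN11 and 79.1% for CLDN16. CLDN16 passed the filter on low counts only through EGF_MCOL, and CLDN11 would not have passed it without CONT_M. The filter thus favoured a large group share for these genes, and their shares are a description. Replicate number held 79.7% for CLDN7 and 61.6% for CLDN1, against a median of 32.0%. For TJP1, replicate number held 34.6%, and 2.62% was left to neither. For CLDN4, 55.5% was left to neither.

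**Figure D4:**
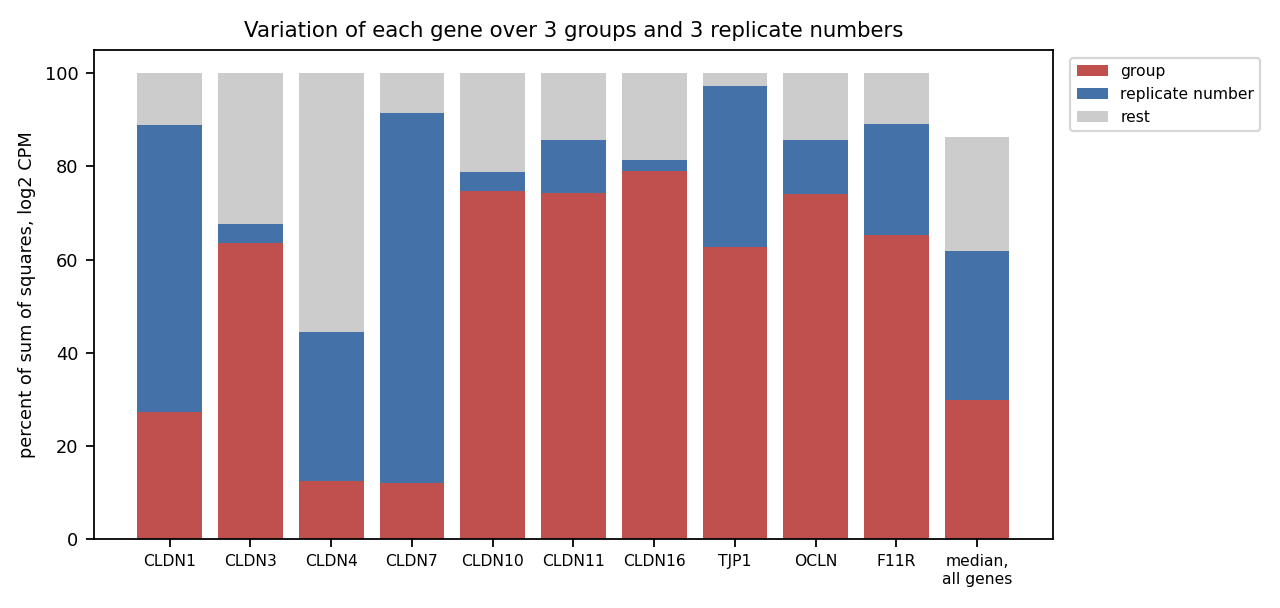
Percent of the sum of squares of log2 CPM over 9 libraries held by group, by replicate number and by the rest, for each member and as medians over all genes (medians of the 3 shares taken separately, so they do not add up to 100). Group is the largest share for 7 members, replicate number for CLDN1 and CLDN7, and the rest for CLDN4. For CLDN11 and CLDN16 the filter on low counts favoured a large group share.

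A wider list of 81 tight junction genes in 9 groups held the members and their partners, and 78 were found. In EGF_M against CONT_M, 65 were tested and 2 were called, CLDN23 higher and CLDN11 lower, where 0.845% of all genes were called higher and 0.944% lower. CLDN11 passed the filter on low counts only through the CONT_M libraries, where it was high, so its calls are a description. With the block, 9 were called: 7 higher (F11R, CGN, CGNL1, EPCAM, SPINT2, CLDN6 and CLDN23) and 2 lower (CLDN8 and CLDN11), or 13.8% of the list, where 10.6% of all genes were called in either direction (4.9% higher and 5.67% lower). Outside the 10 members, 56 genes were tested. Of these, 1 was called higher and 0 lower without the block, and 6 higher and 1 lower with it. In the whole list the median log2FC was 0.40, against 0.01 for all genes tested. Of its 65 values, 49 were positive (75.4%, against 50.8% of all genes). Over all other settings that kept the 6 or 9 libraries, the list's median stayed between 0.36 and 0.42. In EGF_MCOL against CONT_M, 67 were tested, with CLDN23 higher and CLDN10 lower, and with the block 4 higher (CGN, CGNL1, TJP1 and CLDN23) and 2 lower (CLDN8 and CLDN10), or 8.96% of the list, where 5.26% of all genes were called in either direction. The median there was 0.39, against 0.04 for all genes. In EGF_MCOL against EGF_M, 0 of 65 were called, and the median was -0.03 against 0.00 for all genes.

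Among the claudins outside the members, CLDN23 was at 3.03, 4.84 and 2.95 TPM in CONT_M, 19.9, 22.4 and 8.37 TPM in EGF_M, and 13.9, 19.1 and 11.3 TPM in EGF_MCOL. All EGF libraries were above all CONT_M libraries. Its log2FC was 2.21 in EGF_M against CONT_M (SE 0.41, adjusted p = 0.0462) and 1.97 in EGF_MCOL against CONT_M (SE 0.31, adjusted p = 0.0383), and over single libraries left out the adjusted p ran from 0.0350 to 0.167 and from 0.0420 to 0.160. Each call was lost when any library but replicate 3 of the EGF group was left out. CLDN8, a barrier claudin, went the other way, at 88.9, 38.0 and 34.3 TPM in CONT_M, 5.51, 11.3 and 19.4 TPM in EGF_M and 25.3, 19.9 and 19.4 TPM in EGF_MCOL, with no overlap of either EGF group with CONT_M. Its log2FC was -2.11 (SE 0.52, adjusted p = 0.0746, with the block 0.0422) in EGF_M and -1.37 (SE 0.35, adjusted p = 0.0837, with the block 0.0469) in EGF_MCOL. CLDN6, an early epithelial claudin, rose by 0.84 with the block in EGF_M (SE 0.16, adjusted p = 0.0234). CLDN15, a channel claudin, had a log2FC of -1.24 in EGF_M (adjusted p = 0.503) and -1.19 in EGF_MCOL (adjusted p = 0.553).

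The scaffolds CGN (cingulin) and CGNL1 (paracingulin), which link the junction to the cytoskeleton, rose with the block in both EGF groups. CGNL1 was at 23.5, 29.0 and 18.8 TPM in CONT_M, 52.6, 90.4 and 39.7 TPM in EGF_M and 70.3, 107 and 35.6 TPM in EGF_MCOL. Its log2FC with the block was 1.29 (SE 0.21, adjusted p = 0.0135) in EGF_M and 1.40 (SE 0.25, adjusted p = 0.0378) in EGF_MCOL, and for CGN it was 0.73 (SE 0.17, adjusted p = 0.0392) and 0.75 (SE 0.15, adjusted p = 0.0482). EPCAM, an adhesion molecule that stabilizes claudins, and SPINT2, an inhibitor of the membrane proteases that cleave EPCAM, rose with the block in EGF_M by 0.70 (adjusted p = 0.0401) and 0.74 (adjusted p = 0.0307). EPCAM is also one of the epithelial markers above. Among the MARVEL and tricellular proteins, the polarity complexes and the junction transcription factors, no gene was called in either fit. The largest values there in EGF_M against CONT_M were 0.94 for MARVELD3 (adjusted p = 0.219), -1.84 for the polarity protein MPDZ (adjusted p = 0.151) and 1.03 for the transcription factor ELF3 (adjusted p = 0.143), and in EGF_MCOL against CONT_M 0.68 for MARVELD3 (adjusted p = 0.288), -2.11 for MPDZ (adjusted p = 0.128) and 1.10 for ELF3 (adjusted p = 0.125). JAM3, an adhesion molecule of the family of F11R, had values of -0.63 and -0.83 (adjusted p = 0.535 and 0.273), and the kinase WNK4 0.69 in EGF_MCOL (adjusted p = 0.495). For collagen I under EGF, the largest values in 7 of the groups of genes were 0.71 for CLDN8, -0.26 for CLDN23, -0.29 for MARVELD3, -0.23 for JAM3, -0.47 for YBX3, 0.56 for PARD6G and 0.33 for GRHL2, each with an adjusted p of 1.00.

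**Figure D5:**
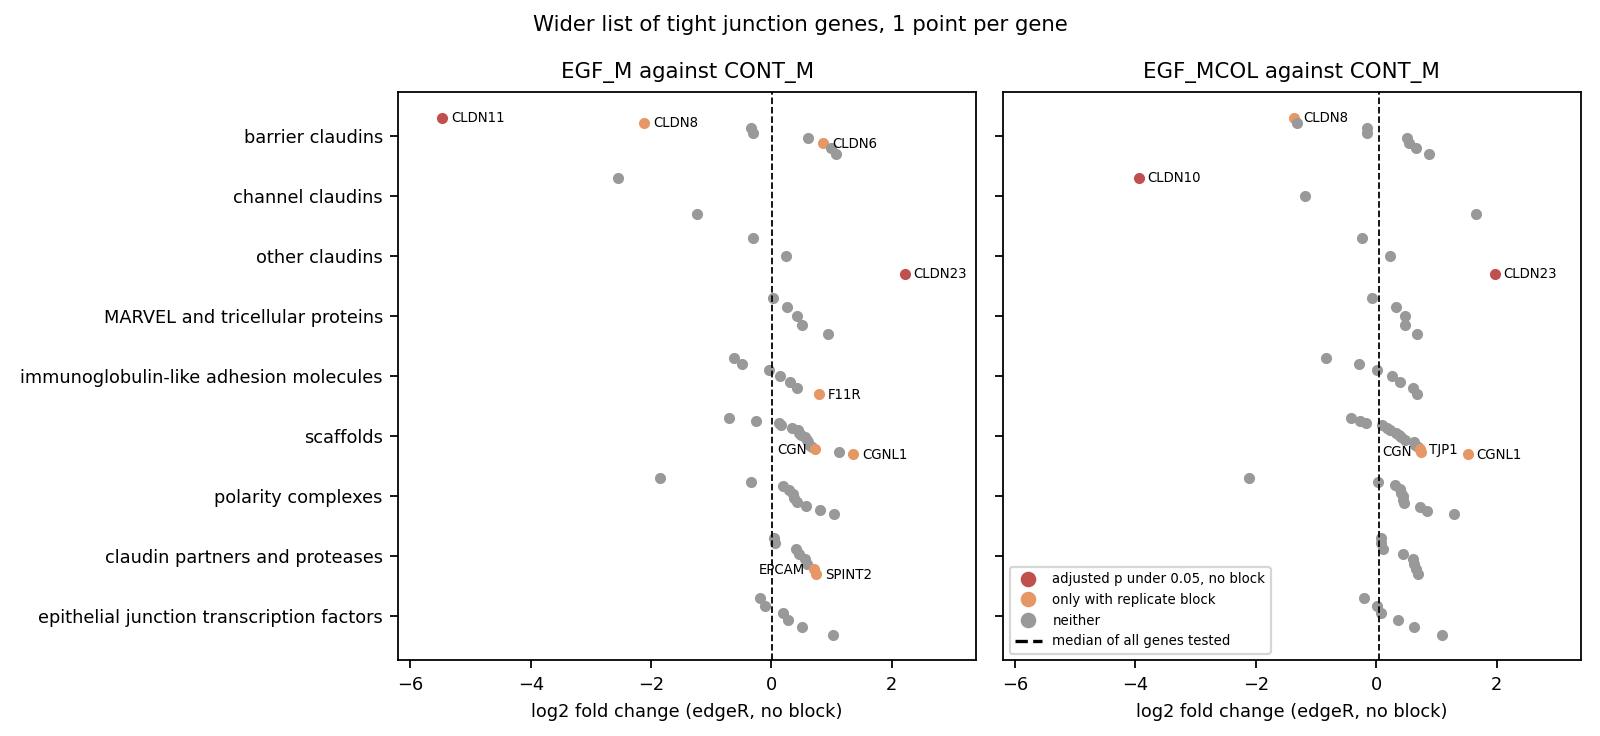
Log2 fold changes of the wider list of tight junction genes against CONT_M, 1 point per gene and 1 row per group of genes, without the block, with colour for the call. The dashed line is the median of all genes tested (0.01 and 0.04). Most points lie to its right, and CLDN10, CLDN11 and CLDN8 lie farthest to the left among the claudins.

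For the 4 members with the widest range of group means, the genes most like them over the 9 libraries were ranked by Pearson's r of log2 CPM among 12858 genes. The points share the same libraries and groups, and r is given as a description. CLDN3 was followed by DLGAP4 (r = 0.980), SERTAD3 (r = 0.967) and MED10 (r = 0.966). CLDN10 was followed by ENSBTAG00000056851 (r = 0.972), ENSBTAG00000015156 (r = 0.970) and TMEM258 (r = 0.962). CLDN11 was closest to VEGFC (r = 0.972), FBLN5 (r = 0.949) and PRPF3 (r = 0.938). VEGFC averaged only 0.663 TPM, and CLDN11 had 90 counts over the 9 libraries. CLDN16 had the weakest likeness, to UNC13A (r = 0.899), RHOT2 (r = 0.889) and LRCH4 (r = 0.866), and UNC13A and LRCH4 were, like CLDN16, under 1 TPM on average.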

How the data were processed

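Uterine gland fragments from cattle were sequenced on day 5 as 9 libraries (SMART-Seq HT PLUS). The authors used CLC Genomics Workbench at its defaults to align trimmed reads to ARS-UCD2.0. They deposited read counts per gene without normalization and TPM values, both for 20679 genes with Ensembl identifiers. The annotation release and strand setting are not given in the sources used here. All per-sample columns were used. The 10 genes and the lists were chosen with earlier results of these data known.

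From the deposited counts, genes were kept by filterByExpr (minimum count 10), scaled by TMM and tested with edgeR 4.0.16 (glmQLFit, glmQLFTest) in R 4.3.3 on the 6 libraries of each comparison. Standard errors were derived from the log2 fold change and its F statistic. The alternatives were DESeq2 1.42.0, limma 3.58.1 on log2(TPM + 1) or log2(TPM + 0.1), the replicate block, all 9 libraries, RLE size factors, edgeR's likelihood ratio test, no filter, the DEG criteria of the study (log2FC beyond 1 and TPM above 1 in each library), and leaving out libraries. Fits with the block and a replicate pair left out were chosen after seeing the data. The fits with and without the block, the likelihood ratio test and DESeq2 were checked on simulated counts with known changes. Only the simulation for the block held a replicate effect. Limma on log2(TPM + 1) was checked on simulated TPM, for EGF_M against CONT_M only. Levels between genes were compared in TPM only. Ratios of few counts carry exact intervals, which cover counting error only, because the reads have no molecular identifiers. RefSeq gene positions on ARS-UCD2.0 were set beside the rows of the files. Figures were drawn with matplotlib 3.10.9.

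The labels number the replicates 1 to 3 in each group. The deposited columns are not numbered in the same way. Deviations from the group means correlated between same-numbered libraries at 0.329 to 0.437 for EGF_M and CONT_M. The values were 0.471 to 0.687 for EGF_MCOL and EGF_M and 0.278 to 0.350 for EGF_MCOL and CONT_M. All were over 0.1, so the numbers were taken to pair the libraries. Differently numbered libraries correlated at -0.524 to 0.111, the highest for EGF_MCOL replicate 1 and CONT_M replicate 2. A value over 0.1 alone thus does not mark a pair. The correlations come from the same data as the tests, and the labels do not state the pairing. For EGF_MCOL and EGF_M, the paper reports clustering mainly by individual and not by collagen I. The main fit leaves the pairing out, and the fit with the block uses it.

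Named were all 10 members, in each group of the wider list up to 4 genes with an adjusted p under 0.05 or otherwise the 1 with the largest log2FC, and the 3 genes most like each of the 4 members with the widest range of group means. One gene named by this rule is not reported here.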

Additional observations from a re-analysis of the deposited data

How the results depend on the processing

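The calls rest on 3 libraries a group and on the treatment of the replicate number. Of the members in EGF_M against CONT_M, 1 was called in the main fit, CLDN11. DESeq2 called 3 (F11R, CLDN10 and CLDN3) and not CLDN11. The likelihood ratio test called 2 (CLDN11 and CLDN10) and the replicate block 2 (CLDN11 and F11R). All 9 libraries with replicate block called 6 (CLDN3, CLDN10, CLDN11, TJP1, OCLN and F11R). No filter, all 9 libraries, limma on log2(TPM + 0.1) and the DEG criteria of the study called 0 each. With libraries left out, 0 to 5 were called. The wider list, with 2 calls, gave 12 by DESeq2, 6 by the likelihood ratio test, 9 with the replicate block, 5 and 22 with all 9 libraries without and with the block, 1 and 0 by limma with 1 and 0.1 added, 1 by the DEG criteria, and 0 to 20 with libraries left out. In EGF_MCOL against CONT_M the members, with 1 call, gave 3 by DESeq2, 2 with the block, 4 with all 9 libraries and the block, and 0 to 5 with libraries left out. The list there, with 2 calls, gave 12, 7 by the likelihood ratio test, 6 with the block, 4 and 19 with all 9 libraries without and with it, and 0 to 20. In EGF_MCOL against EGF_M no setting called a member, and the list had 0 to 2 calls with libraries left out. With the block and a pair left out, 0 members were called without pair 1 or pair 2 and 5 without pair 3 in either comparison with CONT_M. CLDN11 was not among the members called without pair 3. The counts tended to rise with the share of all genes called, but not in every setting. In EGF_M against CONT_M that share was 1.79% without the block, 7.93% by the likelihood ratio test and 10.6% by DESeq2 and with the block. It was 15.3% with the block without pair 3 and 16.5% with all 9 libraries and the block. With all 9 libraries and no block it was 4.51%, where 0 members were called. In EGF_MCOL against CONT_M the share was 1.49%, 8.03%, 12.2%, 5.26%, 19.1% and 15.8%, with DESeq2 and the block given one after the other. The likelihood ratio test called 1 member there and the block 2. The cause was not tested.

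In EGF_MCOL against EGF_M, the log2FC of CLDN7 turned to 0.077 with the replicate block, 0.095 with all 9 libraries and the block, and 0.17 and 0.18 by limma, and that of OCLN to 0.038 by limma with either value added. With a single library left out, signs also turned there for CLDN3 (-0.37 to 0.0099), CLDN7 (-0.62 to 0.86), TJP1 (-0.050 to 0.30), OCLN (-0.18 to 0.10), F11R (-0.34 to 0.032), CLDN23 (-0.58 to 0.00098), JAM3 (-0.59 to 0.095), MARVELD3 (-0.50 to 0.0085), PARD6G (-0.34 to 1.09) and YBX3 (-2.85 to 0.94). In EGF_M against CONT_M the sign turned for CLDN7 (-0.33 to 1.17), and in EGF_MCOL against CONT_M for CLDN4 (-0.33 to 0.13) and CLDN7 (-0.028 to 1.10). With the block and a pair left out, CLDN4 turned to 0.045 in EGF_M and 0.19 in EGF_MCOL, both against CONT_M and without pair 3. In EGF_MCOL against EGF_M these fits turned CLDN3 (0.13) and CLDN23 (0.034) without pair 1, CLDN7 (0.31) and OCLN (0.053) without pair 2, CLDN7 (0.0060) without pair 3, and JAM3 (0.20 and 0.044) without pairs 1 and 3. Of the other single-gene values, 870 kept direction and side of the threshold, 92 became calls and 33 lost theirs. Depth limits CLDN11 and CLDN16 most, with totals of 90 and 60 counts over 9 libraries.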

Other observations

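CLDN5, the claudin of endothelial tight junctions, was singled out after its values were seen. It was at 1.08, 0.993 and 7.67 TPM in replicates 1, 2 and 3 of CONT_M, at 4.18, 0 and 17.95 TPM in EGF_M and at 1.5, 1.34 and 13.9 TPM in EGF_MCOL. Replicate 3 was the highest library in each group. The summed TPM of 6 endothelial markers was 20.3, 13.6 and 20.2 in CONT_M, 19.8, 8.67 and 28.8 in EGF_M and 23.0, 14.9 and 29.8 in EGF_MCOL, with replicate 2 the lowest in each group.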
